A study of Mus musculus with 8 samples.

Results

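The Ugt1a enzymes and Ugdh were read in the livers of mice on 2 amino acid defined diets. The members are the 5 Ugt1a genes Ugt1a1, Ugt1a5, Ugt1a6a, Ugt1a6b and Ugt1a9 together with Ugdh, chosen by gene symbol, and all 6 were among the 11784 genes of the table. The liver donors were male C57BL/6J mice that were switched at 9 weeks of age to a Control diet (TD.140711; 4 mice) or to a Low AA diet (TD.140712; 4 mice) and killed 4 months later after a fast of about 16 hours. The Low AA diet supplied a smaller share of its calories as amino acids and a larger share as carbohydrate, with fat nearly equal. Each library carries the code of 1 mouse. The mice were group housed, and the labels do not say which of them shared a cage. Poly(A) RNA was sequenced as single reads of 100 bases. The values are read counts that had been scaled per mouse and rounded before deposit, called scaled read counts below. They summed to between 27876664 and 30799385 per mouse.

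Glucuronidation attaches glucuronic acid to bilirubin, steroids, bile acids, phenols and drugs, which makes them soluble enough to leave in bile and urine. The UDP-glucuronosyltransferases (UGTs) carry out this reaction inside the endoplasmic reticulum of hepatocytes, and UGDH, the UDP-glucose dehydrogenase of the cytosol, makes the UDP-glucuronate they consume. The Ugt1a genes are a single locus in which each gene has its own promoter and its own first coding exon, and all of them splice to one set of downstream exons. The first exon encodes the part of the enzyme that binds the substrate, and the shared exons encode the part that binds UDP-glucuronate. UGT1A1 conjugates bilirubin, and the UGT1A6 and UGT1A9 enzymes are known for phenolic substrates.

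In the GENCODE annotation of GRCm38, the assembly also called mm10 and the build named in the submitters' processing notes, the Ugt1a genes lie on the plus strand of chromosome 1 and share their last exons. The first coding exon of Ugt1a9 spans 88070800 to 88071678, that of Ugt1a6b 88106941 to 88107799, that of Ugt1a6a 88138473 to 88139331, that of Ugt1a5 88166012 to 88166903, and that of Ugt1a1 88211959 to 88212871. The first shared exon starts at 88215044 and is the second exon of Ugt1a9, Ugt1a5 and Ugt1a1. Ugdh lies on the minus strand of chromosome 5 from 65413221 to 65435949. The 5 junctions below show where the private and the shared parts of the transcripts meet. Each line gives, 5′ to 3′, the last 40 bases of the first coding exon in lower case and the first 20 bases of the shared exon in capitals, from the GENCODE transcripts.
Ugt1a9: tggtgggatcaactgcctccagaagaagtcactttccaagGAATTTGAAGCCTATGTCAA
Ugt1a6b: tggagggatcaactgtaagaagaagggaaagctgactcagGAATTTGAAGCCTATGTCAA
Ugt1a6a: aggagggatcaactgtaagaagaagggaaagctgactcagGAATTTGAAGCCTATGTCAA
Ugt1a5: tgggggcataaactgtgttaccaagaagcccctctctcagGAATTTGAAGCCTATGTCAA
Ugt1a1: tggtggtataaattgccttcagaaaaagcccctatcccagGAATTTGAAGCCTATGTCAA

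The letters in capitals are the same in every line, and a read that lies in the shared part cannot be given to any single gene by its sequence. The shared part made up 57.1% to 59.9% of each Ugt1a transcript. Every 100-base window of the 5 transcripts was searched in all GENCODE mouse transcripts. Windows found in no other gene made up 41.5% of the Ugt1a9 transcript, 42.8% of Ugt1a1, 36.9% of Ugt1a5 and 28.5% of Ugt1a6b. Ugt1a6a had 0 such windows, because an annotated transcript of Ugt1a7c contains the coding exon of Ugt1a6a. With Ugt1a7c left out of the search the share for Ugt1a6a was 28.6%. The first coding exons of Ugt1a6a and Ugt1a6b were 97.0% identical, with 26 mismatches in 859 bases, while that of Ugt1a9 was 55.1% to 58.2% identical to those of the other members. The submitters' processing notes name RSEM, a program that divides reads fitting several transcripts among them by estimated abundance, but they give it no role here. Values of single Ugt1a genes are therefore uncertain by the reads divided in the shared part, and Ugt1a6a and Ugt1a6b are the least certain pair. RefSeq also gives Ugt1a9 as an older symbol of Ugt1a6b, and the table lists both names, which are taken here as the current symbols. Ugdh does not have the limit on shared reads, with 97.6% of its windows in no other gene.

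**Figure D1:**
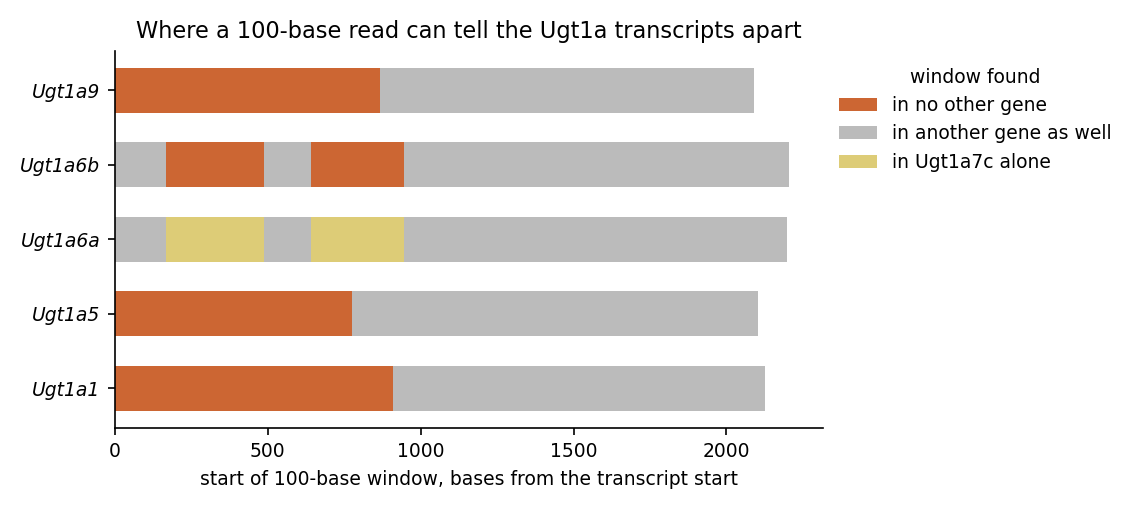
The 5 Ugt1a transcripts are drawn as bars along the start of each 100-base window (bases from the transcript start), coloured by whether the window occurs in no other gene, in Ugt1a7c alone, or in other genes as well. The right-hand part of every bar is shared, and no window of Ugt1a6a occurs in that gene alone.

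Liver identity was plain in all mice, with Alb between 1321262 and 1789498 scaled read counts. Control mouse F2212 stood apart, with 36587 of the pancreatic elastase Cela1 against 130 to 288 in the other 7 mice and 57733 of the acute-phase gene Saa1 against 68 to 2818, so member values are also given without it. To compare the diets, log2(value + 1) was fitted in limma and p was adjusted by Benjamini-Hochberg over all 11784 genes, and a gene was called at an adjusted p under 0.05. Positive fold changes are higher on the Low AA diet. Of all genes 0.399% were called, 0.102% higher and 0.297% lower, and 11.8% had an unadjusted p under 0.05. Values did not overlap between the diets for 6.81% of all genes, 3.26% higher and 3.55% lower. Among the 6 members 1 gene, Ugt1a9, was called. Ugt1a9, Ugt1a6a, Ugt1a6b and Ugdh had unadjusted p values under 0.05 and no overlap, but the members were picked with such results known, so these counts are a description. In whole liver, fewer cells of a type and less RNA per cell cannot be told apart.

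Ugt1a9 rose on the Low AA diet. The Control mice F129, F2212, F7111 and F2110 had 2787, 1554, 2495 and 2268 scaled read counts. The Low AA mice H1126, H828, H817 and H1315 had 7042, 8869, 6930 and 7407. Every Low AA mouse lay far above every Control mouse, and F2212 was the lowest of the 8. The means were 2276 ± 526 on the Control diet and 7562 ± 895 on the Low AA diet (SD, n = 4 each), a ratio of 3.32. The log2 fold change was 1.76 (standard error 0.17, 95% interval 1.38 to 2.14, limma adjusted p = 0.00198), the 5th smallest unadjusted p of all genes. Without Control mouse F2212 it was 1.58 (limma adjusted p = 0.000643). The gene was called in each of the 16 fits made, with log2 fold changes from 1.58 to 1.87 and adjusted p from 0.000643 to 0.0104.

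**Figure D2:**
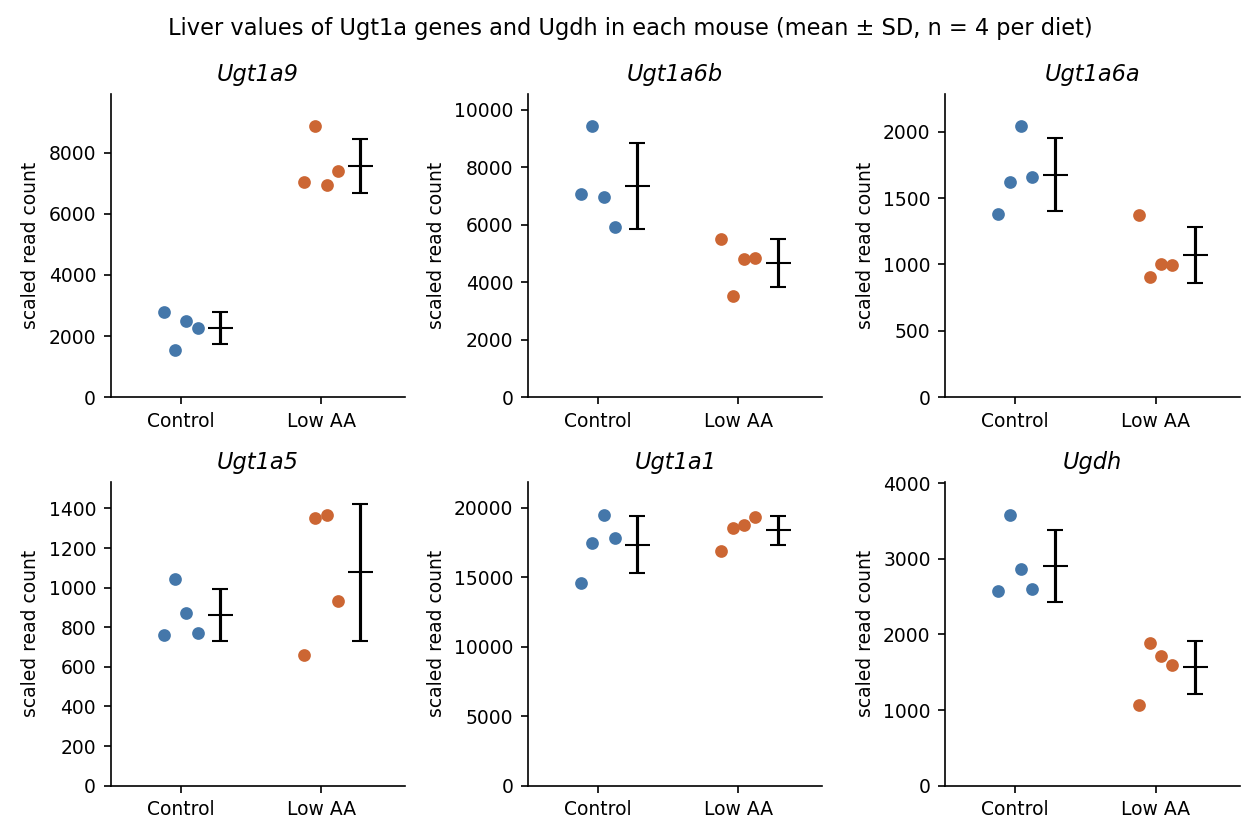
Each panel plots 1 gene, with the scaled read count of each mouse as a point on an axis from 0 and the mean and SD of 4 mice per diet beside the points. The Low AA mice lie above the Control mice for Ugt1a9, below them for Ugt1a6b, Ugt1a6a and Ugdh, and the diets overlap for Ugt1a5 and Ugt1a1.

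The Ugt1a6 pair had lower values on the Low AA diet without passing the threshold. Ugt1a6b had 7054, 9426, 6957 and 5913 scaled read counts in the Control mice, in the order F129, F2212, F7111 and F2110. It had 5509, 3514, 4808 and 4850 in the Low AA mice, in the order H1126, H828, H817 and H1315. All Low AA values lay below all Control values, with F2212 the highest and H828 the lowest. Its log2 fold change was -0.65 (standard error 0.17, 95% interval -1.02 to -0.28, limma adjusted p = 0.146), and without F2212 it was -0.52 (limma adjusted p = 0.18).

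Ugt1a6a, taken in the same order of mice, had 1383, 1621, 2043 and 1661 scaled read counts on the Control diet. On the Low AA diet it had 1376, 908, 1004 and 996. The groups were separated by a narrow margin, since H1126 with 1376 reached almost to F129 with 1383. The log2 fold change was -0.65 (standard error 0.15, 95% interval -0.99 to -0.31, limma adjusted p = 0.119). Without F2212 it was -0.66 (limma adjusted p = 0.134). The ratio of means was 0.639 for Ugt1a6a and 0.636 for Ugt1a6b. The log2 ratio of Ugt1a6a to Ugt1a6b ran from -2.54 to -1.77 in the Control mice and from -2.28 to -1.95 in the Low AA mice, with a mean of -2.12 on both diets. Added together, which removes any division of reads between the near-identical pair, they had 7574 to 11047 scaled read counts on the Control diet and 4422 to 6885 on the Low AA diet, and the means differed by -36.3%. This sum was not tested, and reads shared with the other Ugt1a genes remain divided in it by an unknown method.

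Ugt1a1, the bilirubin enzyme, was the most abundant member. Its Control values were 14594, 17459, 19516 and 17818 scaled read counts in F129, F2212, F7111 and F2110. Its Low AA values were 16914, 18530, 18770 and 19348 in H1126, H828, H817 and H1315. The groups overlapped, with means of 17347 ± 2043 and 18391 ± 1042 (SD, n = 4 each). The log2 fold change was 0.09 (standard error 0.11, limma adjusted p = 0.819), with a 95% interval of -0.15 to 0.33, so a change of the size seen in Ugt1a9 lay outside the interval. It was 0.0099 without F129, 0.15 without F7111 and 0.096 without F2212 (limma adjusted p = 0.99, 0.567 and 0.82). Ugt1a5 was the most variable member on the Low AA diet, with 659, 1352, 1369 and 931 scaled read counts in H1126, H828, H817 and H1315. In the Control mice it had 761, 1043, 874 and 769. H1126 was the lowest of all 8 mice, and H828 and H817 were the highest. Its log2 fold change was 0.27 (standard error 0.22, 95% interval -0.22 to 0.77, limma adjusted p = 0.71). The value was 0.49 without H1126, 0.14 without H828, 0.14 without H817 and 0.37 without F2212, and the limma adjusted p of these fits ran from 0.388 to 0.961. Ugt1a10 is the other Ugt1a gene in the table, at 15 to 43 scaled read counts, and its log2 fold change of -0.12 changed sign in 3 fits that left out a mouse.

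The 5 Ugt1a values were summed in each mouse, because the sum does not depend on how reads of the shared exons were divided among these genes. Other Ugt1a genes share those exons, and reads given to them or not counted are outside the sum. The sum ran from 26579 to 31885 scaled read counts in the Control mice and from 31500 to 33532 in the Low AA mice. The ranges overlapped, since F7111 was above H1126. The means were 29499 ± 2445 and 32772 ± 888 (SD, n = 4 each), a ratio of 1.11, and this sum was not tested. The composition differed more than the total. Ugt1a9 made up 7.82% ± 2.24 of the sum in the Control mice, at most 10.5%, and 23.1% ± 2.51 in the Low AA mice, at least 21.1% (SD, n = 4 each). Ugt1a6b made up 20.8% to 30.3% and 10.6% to 17.5%, and Ugt1a6a 5.20% to 6.41% and 2.74% to 4.37%. These shares did not overlap between the diets. Unlike the sum, the shares depend on how reads of the shared exons were divided. A higher share of Ugt1a9 also lowers the other shares by itself, so they are not separate results. Ugt1a1 held 58.7% ± 3.79 and 56.1% ± 1.77 of the sum (SD, n = 4 each), with overlapping ranges. The difference of means, Low AA minus Control, was 5286 scaled read counts for Ugt1a9, 1044 for Ugt1a1, -2667 for Ugt1a6b and -606 for Ugt1a6a. The other 4 genes without Ugt1a9 summed to 23792 to 29549 on the Control diet and 24304 to 26125 on the Low AA diet.

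**Figure D3:**
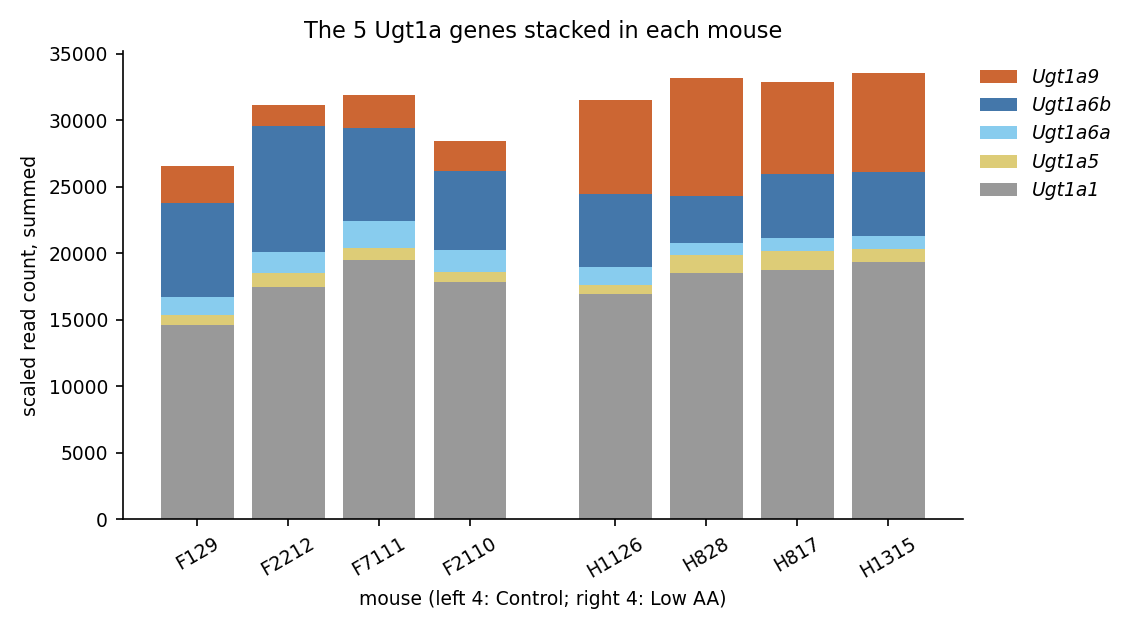
Each bar is 1 mouse and stacks the scaled read counts of the 5 Ugt1a genes from 0 upward, with the Control mice on the left and the Low AA mice on the right. The Ugt1a9 part is at least 21.1% of the bar in Low AA mice and at most 10.5% in Control mice, and the Ugt1a1 part is the largest in every mouse.

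Ugt1a9 and Ugt1a6b stood in opposite order on the diets. The log2 ratio of Ugt1a9 to Ugt1a6b was between -2.60 and -1.34 in the Control mice and between 0.35 and 1.34 in the Low AA mice, so Ugt1a9 was below Ugt1a6b in all 4 Control mice and above it in all 4 Low AA mice. Against Ugt1a1, the log2 ratio of Ugt1a9 ran from -3.49 to -2.39 on the Control diet and from -1.44 to -1.06 on the Low AA diet. These ratios compare genes in the same library, so a scale factor of that library cancels. The unknown division of shared-exon reads between the genes does not cancel. The ratios were not tested.

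Ugdh, which encodes the enzyme that turns UDP-glucose into UDP-glucuronate, had lower values in every Low AA mouse. The Control mice F129, F2212, F7111 and F2110 had 2573, 3586, 2869 and 2597 scaled read counts. The Low AA mice H1126, H828, H817 and H1315 had 1073, 1882, 1714 and 1595. The diets did not overlap, with F2212 the highest of the 8 mice and H1126 the lowest. The means were 2906 ± 473 and 1566 ± 349 (SD, n = 4 each), a ratio of 0.539. The log2 fold change was -0.91 (standard error 0.18, 95% interval -1.30 to -0.51), which did not pass the threshold (limma adjusted p = 0.0712). Without F2212 it was -0.80 (limma adjusted p = 0.0941) and without H1126 it was -0.74 (limma adjusted p = 0.0969). Over all 16 fits the adjusted p ran from 0.0605 to 0.161 and the log2 fold change from -1.01 to -0.74, and none of these fits called the gene. The log2 ratio of Ugdh to Ugt1a1 ran from -2.78 to -2.28 in the Control mice and from -3.98 to -3.30 in the Low AA mice.

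Levels were compared between genes per kilobase of transcript, with transcript lengths from 2.19 to 2.55 kilobases. Windows found in no other gene made up 97.6% of Ugdh but at most 42.8% of a Ugt1a transcript. The order of the Ugt1a genes therefore holds the limit on shared reads. On the Control diet Ugt1a1 was highest at 7800 ± 918 scaled read counts per kilobase, followed by Ugt1a6b at 3186 ± 645 (SD, n = 4 each). Ugdh at 1140 ± 185 and Ugt1a9 at 1039 ± 240 came next and did not differ beyond their spread, and Ugt1a6a at 730.1 ± 119 and Ugt1a5 at 391 ± 59.6 had the lowest means. The Control ranges of Ugt1a9, 710 to 1273, and of Ugt1a6a, 602 to 889, overlapped. On the Low AA diet Ugt1a1 was again highest at 8269 ± 469 per kilobase. Ugt1a9 was then above Ugt1a6b, at 3453 ± 409 and 2028 ± 363, without overlap. Ugdh at 614 ± 137, Ugt1a5 at 489 ± 157 and Ugt1a6a at 466 ± 90.5 had overlapping ranges at the bottom of the order.

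The members did not vary as one group from mouse to mouse. After the mean of each diet was removed, Pearson's r over the 8 mice was 0.94 for Ugt1a5 and Ugdh, both lowest in H1126 among the Low AA mice and highest in F2212 among the Control mice. It was -0.75 for Ugt1a9 and Ugt1a6b, and 0.37 for Ugt1a6a and Ugt1a6b. For the other pairs it lay between -0.56 and 0.45. The division of shared reads may enter r between Ugt1a genes, and its part was not tested. With the diet difference left in, the genes whose values followed Ugt1a9 most closely over the 8 mice were Stt3b, App and Etfdh (r = 0.98, 0.97 and 0.97). They were picked as the highest of all genes in the table. After the diet means were removed, r was 0.79, 0.58 and 0.35 in the same order. Stt3b encodes a catalytic subunit of the oligosaccharyltransferase, and its log2 fold change was 0.36 (limma adjusted p = 0.106). App, the amyloid precursor protein gene, was called at 1.28 (limma adjusted p = 0.00198), while Etfdh, a flavoprotein dehydrogenase of mitochondrial fat oxidation, had 0.40 (limma adjusted p = 0.0831). The gene that ran most against Ugt1a9 was Arl16 (r = -0.99, and -0.96 after the diet means were removed). Ugt1a6b was followed most closely by Ifi27l1, Apol9a and Gas1 (r = 0.98 for each) and opposed by Agpat3 (r = -0.97). With the diet means removed, r was 0.95, 0.94, 0.98 and -0.92 in this order. Ugdh was followed by Anxa7, Stat6 and 4930455F23Rik (r = 0.98, 0.97 and 0.97) and opposed by Slc34a2 (r = -0.99). With the diet means removed, r was 0.91, 0.88, 0.91 and -0.95 in this order. Slc34a2, a phosphate carrier gene, rose by 3.73 on the log2 scale (limma adjusted p = 0.0368). All of these r share the same 8 libraries, and those with the diet difference left in hold that difference. They are given as descriptions.

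The other UGT genes, which use UDP-glucuronate or related sugars, had mostly negative log2 fold changes. The table held 10 of the 13 listed, 9 of them with a negative and 1 with a positive log2 fold change, and none was called in limma, while 6 had an unadjusted p under 0.05. Their median log2 fold change was -0.37, beside 0.0023 for all genes. Ugt2b5, the most abundant of them, had between 23522 and 29400 scaled read counts in the Control mice and between 16395 and 21640 in the Low AA mice, without overlap. Its log2 fold change was -0.55 (standard error 0.12, limma adjusted p = 0.0869). Ugt2b1 had 7335 to 14986 and 4886 to 6558, also without overlap, and its log2 fold change was -0.84 (standard error 0.22, limma adjusted p = 0.146). The values of Ugt2b38 were scattered on the Control diet, from 35 to 832, against 18 to 42 on the Low AA diet, with overlap. Its log2 fold change of -2.81 was not called (limma adjusted p = 0.185), but without F2212 it was -3.58 (limma adjusted p = 0.0375). Ugt2a3, at 0.18 (limma adjusted p = 0.603), was the one with a positive value, and Ugt3a1 was at -0.01, a sign that turned in 4 fits that left out a mouse. The Ugt2b genes are close relatives of one another, so their single values may share the limit on divided reads, which was not measured for them.

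**Figure D4:**
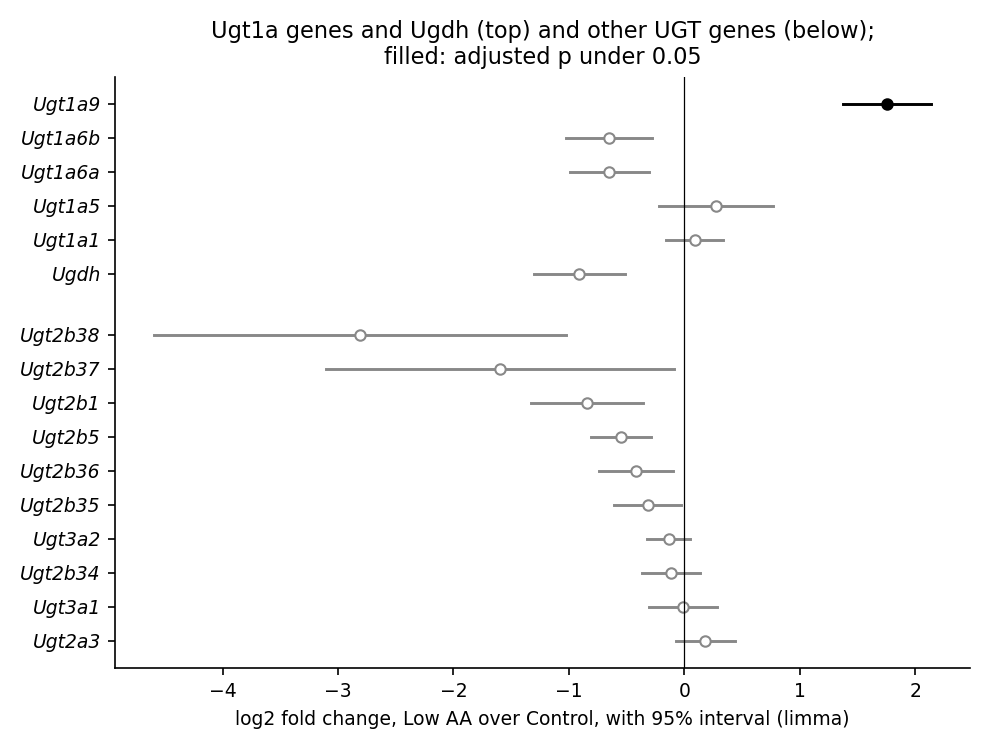
The log2 fold change of Low AA over Control is drawn with its 95% interval from limma for the 6 members on top and the 10 other UGT genes below, with filled points for an adjusted p under 0.05. Ugt1a9 at 1.76 is the filled point, and most other UGT genes lie left of 0.

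Upstream of Ugdh, the genes that lead from glucose, galactose and uridine nucleotides to UDP-glucose had no called member among 19 in limma, and 1 had an unadjusted p under 0.05. The median log2 fold change was 0.07, with 14 positive and 5 negative values. Ugp2, the pyrophosphorylase that makes UDP-glucose, had 9584 ± 1184 scaled read counts on the Control diet and 8187 ± 1175 on the Low AA diet (SD, n = 4 each), and the log2 difference was -0.23 (95% interval -0.52 to 0.06). Upp2, a liver uridine phosphorylase that breaks uridine down, had the smallest p of this list, at -1.21 (limma adjusted p = 0.258). Carriers of nucleotide sugars into the endoplasmic reticulum and Golgi, with the luminal phosphatases, had no called member in limma among 11, 1 of them with an unadjusted p under 0.05, and a median of -0.01. Slc35d1, which carries UDP-glucuronate into the endoplasmic reticulum, was at -0.09 (95% interval -0.30 to 0.11). Its relative Slc35d2 was at -0.28 (limma adjusted p = 0.379) and Slc35a4 at 0.18 (limma adjusted p = 0.628). A further list held other users of UDP-glucose or UDP-glucuronate, together with enzymes of glycogen and glycosaminoglycan synthesis that do not use them directly. It had no called member in limma among 18, none with an unadjusted p under 0.05, and a median of -0.0039. The smallest p values belonged to genes of the latter kind. These were the epimerase gene Glce at 0.24 and, among negative values, the glycogen branching enzyme gene Gbe1 at -0.22 (limma adjusted p = 0.481 and 0.561).

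Downstream, the route from free glucuronate to ascorbate and xylulose had no called gene in limma among 10, 2 with an unadjusted p under 0.05, and a median of -0.17, with 8 negative values. Cryl1, the gulonate dehydrogenase of this route, had 289, 239, 322 and 348 scaled read counts in F129, F2212, F7111 and F2110. It had 179, 189, 170 and 203 in H1126, H828, H817 and H1315. The diets did not overlap, and the log2 fold change was -0.68 (standard error 0.14, limma adjusted p = 0.0793). Without F2212 it was -0.78 and passed (limma adjusted p = 0.0323). Gulo, which makes the last step to ascorbate in mice, was at -0.03 (95% interval -0.33 to 0.28). Of the 8 genes for hydrolysis and export of glucuronides none was called in limma, while 3 had an unadjusted p under 0.05, and the median was 0.11. Abcc3, which exports glucuronides across the sinusoidal membrane, had 5769 to 7575 scaled read counts on the Control diet and 2967 to 5718 on the Low AA diet, without overlap, at -0.70 on the log2 scale (standard error 0.18, limma adjusted p = 0.147). Abcc2, the exporter to bile, was at 0.20 with a wide 95% interval of -0.41 to 0.81, and Abcg2 at 0.27 (limma adjusted p = 0.323).

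The genes around bilirubin, the substrate of UGT1A1, had no called member in limma among 13, 2 of them with an unadjusted p under 0.05, and a median of 0.02. Fech, the last enzyme of haem synthesis, was at -0.29 without overlap (limma adjusted p = 0.266). The uptake carrier gene Slco1a4 was at 0.70 with Control values spread from 1557 to 5531 (limma adjusted p = 0.537). Hmox1, which opens haem on the way to bilirubin, was at 0.09 (95% interval -0.17 to 0.36).

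Regulators with described roles at UGT1A promoters also had no called member in limma among 17, 1 of them with an unadjusted p under 0.05, and a median of 0.07. Ppara was at 0.23 (95% interval -0.05 to 0.51), Nr1i3, which encodes CAR, at 0.18 (-0.13 to 0.48), and Nr1i2, which encodes PXR, at 0.18 (-0.17 to 0.52), all as log2 fold changes. Nr0b2, which encodes SHP, was at 0.73 (limma adjusted p = 0.405) and Cebpa at -0.35 (limma adjusted p = 0.521). Targets of these regulators outside the UGT family were counted as well. Of 22 PPARA targets 22 had positive log2 fold changes, the smallest of them 0.0047 where rescaling to equal upper quartiles moved the median of all genes by -0.012, with a median of 0.27, and 1 was called higher while 11 had an unadjusted p under 0.05. This was Cyp4a31, a fatty acid hydroxylase, at 1.26 (limma adjusted p = 0.0183). Of 11 CAR and PXR targets 1 was called higher, Cyp3a11, at 1.23 (limma adjusted p = 0.0395), with a list median of 0.03, and 2 higher and 2 lower targets had an unadjusted p under 0.05. The lower ones were Cyp2c29 at -0.58 (limma adjusted p = 0.28) and Cyp2c37, named after its values were seen, at -0.37 (limma adjusted p = 0.393). Cyp2b9, also named after its values were seen, was at 5.70 (limma adjusted p = 0.161), with 3, 94, 5 and 0 scaled read counts in F129, F2212, F7111 and F2110 and 2940, 276, 861 and 23 in H1126, H828, H817 and H1315, so that the diets overlapped. Of 16 NRF2 targets 1 was called lower, Gstp1, a glutathione S-transferase, at -1.29 (limma adjusted p = 0.0158), with a median of -0.07 and 10 negative values. At an unadjusted p under 0.05 there were 6 lower NRF2 targets and 1 higher. The higher target was also without overlap, at 0.38 (limma adjusted p = 0.284). Gstp1, Abcc3, Gsta2, Gsta4 and Ephx1 were lower without overlap, where Gsta2 at -1.07, Gsta4 at -0.80 and Ephx1 at -0.66 were named after their values were seen (limma adjusted p = 0.0793, 0.0642 and 0.0653). Of 4 AHR targets none was called in limma, 1 had an unadjusted p under 0.05, and the median was -0.18, with Cyp1a2 at -0.59 (limma adjusted p = 0.245) and Tiparp at 0.24 (limma adjusted p = 0.533). The calls of Cyp4a31 and Gstp1 were lost without Low AA mouse H828 and without Low AA mouse H817, with adjusted p from 0.065 to 0.0681. The call of Cyp3a11 was lost in 7 of the 8 fits that left out a mouse, among the 8000 genes with the highest mean (limma adjusted p = 0.0538) and without the mean-variance trend (limma adjusted p = 0.0636), so that it held in 7 of 16 fits. Over all 13 lists, 3 of the 156 distinct genes in the table were called. The lists were written with earlier results of these data known, so their counts are not independent evidence.

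**Figure D5:**
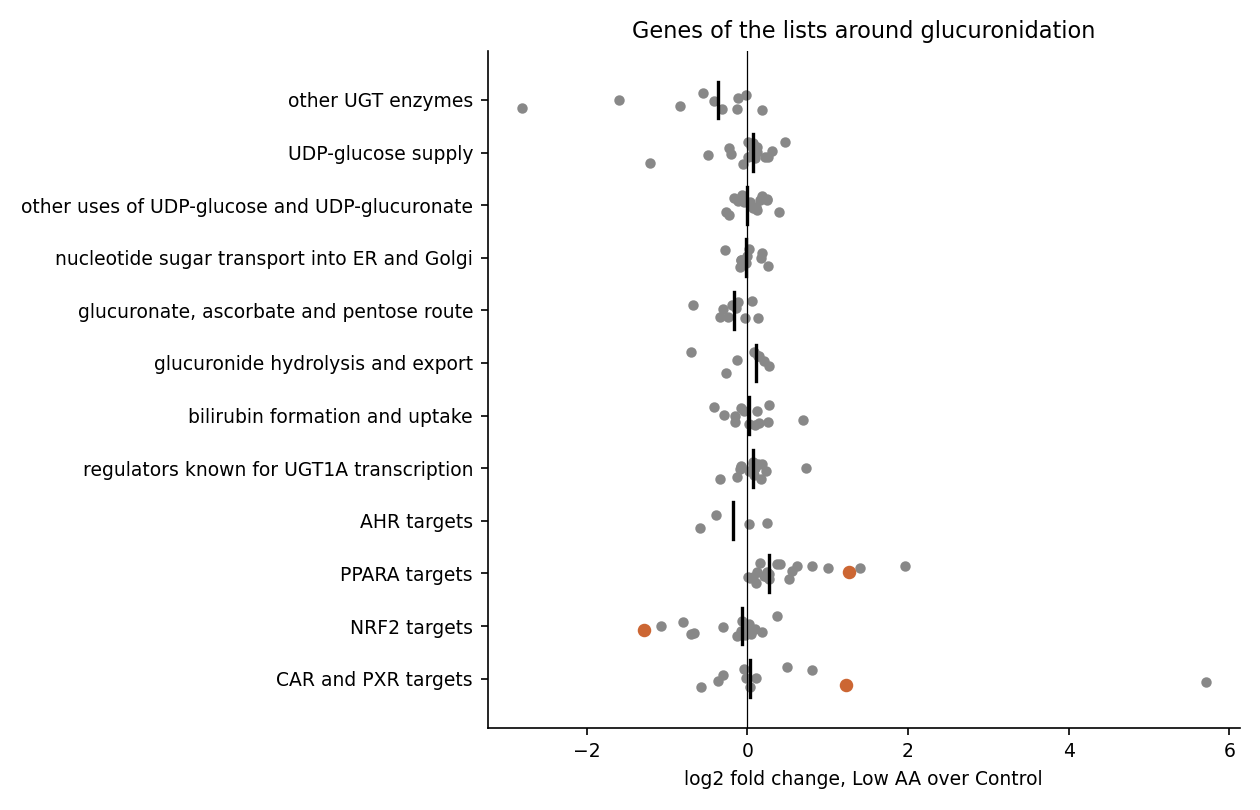
Each row is 1 list of genes around glucuronidation, with the log2 fold change of every listed gene as a point, the list median as a black bar, and called genes in orange. Medians run from -0.37 for the other UGT genes to 0.27 for PPARA targets, the orange points are Cyp4a31, Gstp1 and Cyp3a11, and the grey point at 5.70 is Cyp2b9.

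The promoters of Ugt1a9, Ugt1a6a, Ugt1a5, Ugt1a1 and Ugdh in the RefSeq set for GRCm38.p6 were searched on both strands in the 250 bases before the start, and Ugt1a6b has no entry there. The motifs reported, which are not all that were searched, were GCGTG for AHR, TGACNNNGC for NRF2, AGGTCA for a nuclear receptor motif, TGTTCT for a glucocorticoid receptor motif, CAAAGTCCA for HNF4 and TATAAA for a TATA box.

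Ugdh held the NRF2 letters 2 times, at -132 and at -94 from its RefSeq start, and 10.2% of 32851 promoters hold them at least once. The GENCODE gene reaches upstream of that RefSeq start, to 65435949, and the match at -94 lies inside the GENCODE gene. The match at -94 overlaps 1 of the 3 AHR matches of Ugdh. The AHR letters occur in 28.2% of promoters and once in Ugt1a5. Ugt1a9 also held 1 nuclear receptor motif, found in 14.0% of promoters, and Ugt1a6a held 2 glucocorticoid receptor motifs, found in 16.1%. No HNF4 or TATA letters were found in these 5 windows. The Ugdh window is shown because this member held the NRF2 letters more than once, with the first match in capitals, and is chr5:65435950-65436007 on the minus strand. A match is a description of letters and does not show binding.
Ugdh: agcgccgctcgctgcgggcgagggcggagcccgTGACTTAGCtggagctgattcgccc

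Markers of cell types were read beside the members. Hepatocyte markers summed to 2071475 to 2376511 scaled read counts on the Control diet and 2295200 to 2538895 on the Low AA diet, with 0 of 6 called in limma. Pericentral markers, of the zone around the central vein, had 0 of 11 called and a median log2 fold change of -0.24, and periportal markers 0 of 10 and -0.03. Cholangiocyte markers summed to 1430 to 2626 and 1117 to 1730, with 0 of 5 called and a median of -0.37. For Kupffer cells, stellate cells and sinusoidal endothelium 0 of 6, 0 of 8 and 0 of 6 were called, with medians of 0.23, -0.02 and 0.07. Blood markers had 0 of 3 called and a median of -0.49, acute-phase genes 0 of 9 and -0.68, and Cela1 was the only pancreas marker of 12 in the table. At an unadjusted p under 0.05 there were 2 lower pericentral, 2 lower cholangiocyte, 2 lower stellate and 2 lower blood markers, 1 higher and 1 lower periportal marker, and 1 higher and 2 lower acute-phase genes. The part of these markers in the member values was not tested.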

How the data were processed

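Livers of 8 mice, 4 per diet, were sequenced with stranded poly(A) libraries. The authors deposited 1 value per gene and mouse, a signal made of read counts multiplied by a factor per mouse and rounded to whole numbers, by an unstated method. The submitters' processing notes name mm10, bcl2fastq 1.8.2, STAR 2.5.0a, RSEM 1.2.6, edgeR 3.10.5 and R 3.2.1, with no role or order, and no annotation is given in the sources used here. The authors also deposited a signed fold change (a score) and an FDR (a q-value), which were not used. There were 0 columns of other samples.

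The deposited values were not raw counts, so no count model was used and no counting interval can be given. Totals per mouse ran from 27876664 to 30799385. Groups came from the diet labels. log2(value + 1) was fitted by limma (version 3.58.1, under R 4.3.3), moderated along a mean-variance trend, two-sided, with Benjamini-Hochberg adjustment over 11784 genes and no added filter. A fold change on this scale understates the change of low genes. The code was tested on simulated data. Alternatives were other pseudocounts (0.1 and 5), the 8000 genes with the highest mean, 2 rescalings, 2 forms of moderation and leaving out each mouse. The paper states that the mice were group housed, and the cage of each mouse is not given. Mice treated here as independent may have shared a cage within a diet, so p-values measure the spread between these mice.

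Transcripts came from GENCODE M21 and promoters from RefSeq, both on GRCm38. The members and all lists were chosen with earlier results of these data known. Named genes were the members, from each list the called genes and the gene of smallest p in each direction, the 3 genes of highest and the 1 of lowest correlation with Ugt1a9, Ugt1a6b and Ugdh, cell type markers, and any other UGT gene. Ugp2, Slc35d1, Gulo, Abcc2, Hmox1, Ppara, Nr1i2 and Nr1i3 were named for their roles after their values were seen. Some named items are not reported here.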

Additional observations from a re-analysis of the deposited data

Results flagged for a closer look

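Of 88 groups of 4 mice examined, 4 held a mouse far from the other 3, where chance alone flags about 1 in 20 groups. The gap of that mouse to its nearest neighbour, as a share of the whole range of its group, was 0.925 for Glce in Low AA mouse H1315, with 934 scaled read counts against 1107 to 1121. It was 0.946 for Slc35a4 in Control mouse F129, with 454 against 542 to 547. It was 0.936 for Slco1a4 in Low AA mouse H828, with 2412 against 4759 to 4920. It was 0.845 for Ugt2b34 in Low AA mouse H828, with 10899 against 9055 to 9341. None of the 6 members was among them.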

How the results depend on the processing

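The 6 members kept their direction and their side of the threshold in all 15 alternatives, and the log2 difference of the Ugt1a sum stayed between 0.11 and 0.19 when each mouse was left out. The number of genes called, 47, fell to 19 among the 8000 genes with the highest mean and to 30 without the mean-variance trend, and ran from 16 (without Low AA mouse H817) to 77 (without Control mouse F2212) when each mouse was left out. It was 29 without F129, 21 without H1126 and 19 without H828. The number of called genes in the pathway lists, 3, ran from 0 (without H828 or H817) to 5 (without F2212). Ugt1a10 ran from -0.29 to 0.16, being positive at 0.01 without F2212, 0.05 without F7111 and 0.16 without H1126. Ugt3a1 ran from -0.10 to 0.07, being positive at 0.073 without F2212, 0.03 without F7111, 0.04 without H828 and 0.03 without H817. The causes were not tested. No paired analysis was possible because the mouse codes are not shared between the diets and the labels give no replicate numbers. The number of mice limits the precision, and depth is unknown.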
